A study of Mus musculus with 2 samples.

Results

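The Snrpn and Ube3a imprinted domain was taken as mm10 chr7:59000000-63000000, a window of 4 Mb that runs from before Ube3a to past Peg12. It held 34 of the 56470 CTCF summits of the authors' optimal list and 102 of the 300000 summits of their pooled list. Members were chosen by position alone: every summit of either list that fell in the window. The 6 member genes are Snrpn, Ube3a, Ndn, Magel2, Mkrn3 and Peg12. CTCF was mapped by chromatin immunoprecipitation and sequencing in the forebrain of B6NCrl mice on the day of birth (postnatal day 0). The series has 1 group of 2 libraries, replicate 1 and replicate 2. Tissue from several dissections was pooled, and both libraries cite the same biosample and donor, so their spread may be only technical. Sex was not collected. B6NCrl is an inbred strain and the peak lists carry no allele, so signal on the maternal and the paternal chromosome cannot be told apart. Whole forebrain holds neurons, glia and other cells, and the lists do not separate them. There is no second group, so every statement on the domain is a description.

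Imprinted genes are expressed from 1 parental chromosome only. In this domain Snrpn, Ndn, Magel2, Mkrn3 and Peg12 are expressed from the paternal chromosome, while neurons express Ube3a, a ubiquitin ligase, mainly from the maternal one. An imprinting centre at the Snrpn start is methylated on the maternal chromosome, and a long paternal transcript, Snhg14, runs from the Snrpn region through arrays of small nucleolar RNA (snoRNA) genes and antisense through Ube3a. Loss of the paternal genes is linked to Prader-Willi syndrome in humans and loss of maternal UBE3A to Angelman syndrome. CTCF recognises a long DNA motif through its zinc fingers, takes part in anchoring chromatin loops and boundaries, and binds less well to some sites when their CpG dinucleotides are methylated.

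The 34 optimal-list sites are numbered 1 to 34 along the chromosome. Sequences were read from the mm10 genome, and the capitals mark 14 bases that were aligned or matched to the 14-base CTCF core consensus. Base positions within it are counted from 1 at its 5′ end on the strand shown. The first set is shown because 5 sites between the outer GENCODE start of Snrpn and the middle of the domain turned out to be copies of 1 sequence. The 300 bases around each of their summits matched the other 4 and nothing else on chromosomes 1 to 19, X and Y (BLAST, hits of at least 200 bases).
Site 6 (chr7:60238958-60239017, plus strand): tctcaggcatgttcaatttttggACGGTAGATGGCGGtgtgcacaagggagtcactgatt
Site 7 (chr7:60387131-60387190, plus strand): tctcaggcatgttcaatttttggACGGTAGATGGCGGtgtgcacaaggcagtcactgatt
Site 8 (chr7:60488214-60488273, plus strand): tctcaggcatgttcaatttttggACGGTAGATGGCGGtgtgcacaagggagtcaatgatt
Site 9 (chr7:60617436-60617495, plus strand): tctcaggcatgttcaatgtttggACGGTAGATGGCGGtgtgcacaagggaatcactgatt
Site 10 (chr7:60728491-60728550, plus strand): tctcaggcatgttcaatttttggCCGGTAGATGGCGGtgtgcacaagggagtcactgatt

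The 14 bases were identical at sites 6, 7, 8 and 9 and had 2 mismatches to the consensus. Site 10 had 1 mismatch, and the other copies differed from it by C1A. Each copy held 2 CpG dinucleotides within these 14 bases. The copies lay 148, 101.1, 129 and 111 kb apart, in order along the chromosome, and were 93.6 to 94.9% identical to site 10 over 350 to 367 aligned bases.

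A second repeated sequence is shown because it includes the Peg12 promoter site. Searches with the sequence around site 30 or site 32 found it at 3 places in the genome, and each of them carried an optimal-list summit. A search with the sequence around site 31 found no other place within the same limits. These copies were less alike than those of the first set. Site 30 was 82.6% identical to site 32 over 304 aligned bases, and site 31 was 80.2% identical to site 32 over 258.
Site 30 (chr7:62464671-62464730, plus strand): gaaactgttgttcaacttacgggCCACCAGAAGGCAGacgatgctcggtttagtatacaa
Site 31 (chr7:62542426-62542485, plus strand): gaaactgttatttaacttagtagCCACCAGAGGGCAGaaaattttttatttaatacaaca
Site 32 (chr7:62877243-62877302, plus strand): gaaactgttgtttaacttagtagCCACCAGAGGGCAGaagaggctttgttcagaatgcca

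Site 32 and site 31 carried the same 14 bases, with no mismatch to the consensus. Site 30, at the Peg12 promoter, had 1 mismatch and differed from site 32 by G9A. The 14 bases lay 10.5 bp from the summit at site 32, 19.5 bp at site 30 and 98.5 bp at site 31. Site 31 had another match nearer its summit, CCACCAGAGGGCAT with 1 mismatch (chr7:62542355-62542368), and this is the one counted for it below. The Peg12 promoter itself is given from RefSeq (GRCm38.p6) as the 250 bases before the start site, read on the strand of the gene, so that the match in capitals is the reverse complement of the one at site 30 above. A match with at most 1 mismatch, on either strand, stood in 2.01% of 32851 such promoter windows.
Peg12 promoter (chr7:62464511-62464760, minus strand): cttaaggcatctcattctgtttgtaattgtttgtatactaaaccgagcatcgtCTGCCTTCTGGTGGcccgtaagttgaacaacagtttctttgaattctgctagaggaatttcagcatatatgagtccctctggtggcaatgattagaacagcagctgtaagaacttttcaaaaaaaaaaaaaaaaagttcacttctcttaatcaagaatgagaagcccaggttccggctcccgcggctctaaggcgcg

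The third set shows 4 sites around Magel2 and Mkrn3 that matched with at most 1 mismatch. Sites 24 and 25, which lie among them, matched with 2 mismatches each and are not shown. The set also has the strongest site of the domain (site 34) and the site 2798 bp upstream of the inner Snrpn start (site 5). Each is given on the strand of its best match.
Site 22 (chr7:62375829-62375868, minus strand): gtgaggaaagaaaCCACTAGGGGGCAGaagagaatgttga
Site 23 (chr7:62382588-62382627, minus strand): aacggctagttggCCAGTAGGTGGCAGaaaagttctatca
Site 26 (chr7:62428513-62428552, minus strand): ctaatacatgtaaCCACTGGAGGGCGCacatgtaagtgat
Site 27 (chr7:62433442-62433481, minus strand): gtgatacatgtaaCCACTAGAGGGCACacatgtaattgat
Site 34 (chr7:62924846-62924885, plus strand): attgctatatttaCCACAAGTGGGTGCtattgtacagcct
Site 5 (chr7:60007896-60007935, plus strand): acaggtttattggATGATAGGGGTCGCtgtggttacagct

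Sites 22, 23 and 27 matched the consensus with no mismatch and site 26 with 1. Sites 26 and 27 stood 4.93 kb apart and shared 35 of the 40 bases shown, 23 of them among the 26 flanking bases, with G6A and G13A between them in the core. Outside the pairs that belong to the 5 copies, no other pair of matched sites shared as many flanking bases. The best match had 3 mismatches at site 34 and 5 at site 5, both above the limit of 2 used here, so these sites count as having no match.

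Summits were sparse in the domain as a whole, though not in every part of it. The optimal list gave 8.61 summits per Mb of known sequence (95% exact Poisson interval 5.96 to 12.03, counting error only), beside 26.8 per Mb on chromosome 7 and 23.02 on all autosomes. The domain's density was thus 0.321 of the chromosome's (0.222 to 0.449). The adjoining 2 Mb held 30 summits before the domain and 69 after it, or 15 and 34.5 per Mb. The pooled list was thinner still, at 25.8 per Mb against 134 on chromosome 7, a ratio of 0.193. Of 591 tiles of the same length on the autosomes, 93 held fewer optimal-list summits than the domain (median 79), and 13 held fewer pooled-list summits (median 451).

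The sites that were there had ordinary strength. The signal value, a strength that the authors' caller assigned to every peak, ran from 14.95 to 313 over the 34 sites with a median of 64.9, beside a median of 64.3 over the whole optimal list. The whole-list median split the domain into 17 sites above and 17 below. Of the 102 pooled summits, 33.3% were in the optimal list, beside 18.8% over the genome. A q-value of 0.05 or less was given to 49.0% of them, beside 34.0%. Summits of both replicates lay within 100 bp of 52.9%, beside 35.6%. The pooled summits of the domain thus more often met each of these marks than those of the whole genome, a difference that was not tested.

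**Figure D1:**
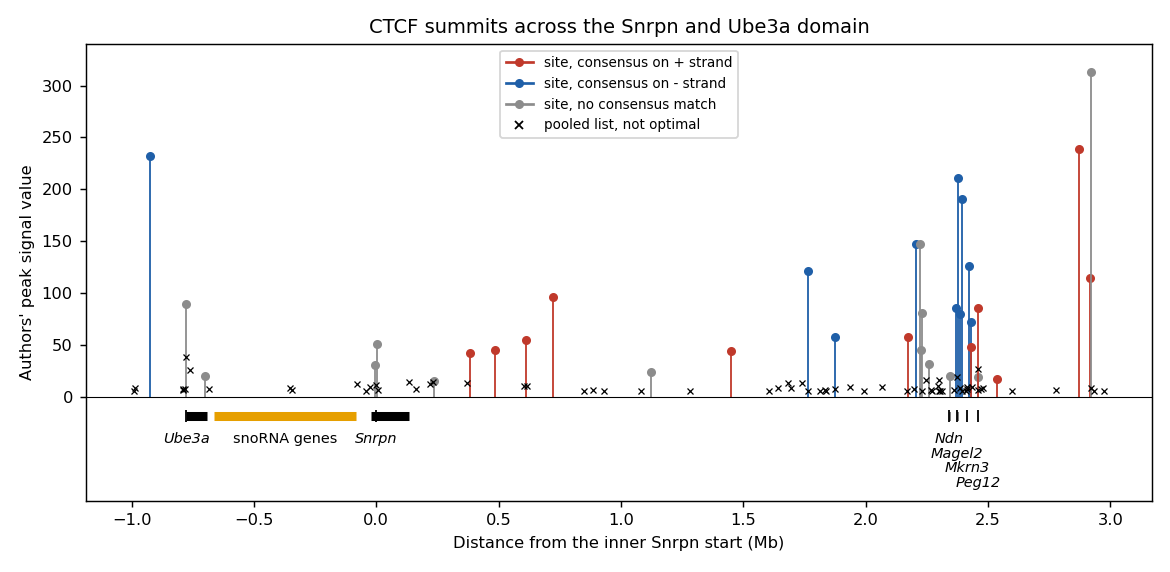
Signal value of each summit (vertical axis) against its distance in Mb from the inner of the 2 GENCODE starts of Snrpn (horizontal axis). Stems with dots are the 34 optimal-list sites, coloured by the strand of the consensus match, and crosses are the 68 pooled-list summits outside the optimal list. Black bars are the 6 genes with a tick at each start, the orange bar is the snoRNA array, where no stem stands, and 17 stems crowd together near Ndn, Magel2, Mkrn3 and Peg12.

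The map of summits was uneven. A stretch of 400 kb around Ndn, Magel2, Mkrn3 and Peg12, 10% of the window, held 17 of the 34 sites, or 4.25 per 100 kb. The 1350 kb before it held 4 sites, or 0.296 per 100 kb. The 400 kb stretch was thus denser than chromosome 7, with its 26.8 summits per Mb, and the 1350 kb were sparser. These stretches were drawn after the summits had been seen. Between genes lay 20 of the sites, 9 lay in introns, 3 in noncoding exon sequence and 2 within 1 kb of the start of a protein-coding gene. These categories were not counted over the whole optimal list, so no background stands beside them.

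Ube3a, the ubiquitin ligase gene at chr7:59228750-59311536, had the stronger of its 2 promoter summits in the optimal list. Site 2, summit 59228991, lay 189 bp downstream of an annotated start. Its signal value was 89.5, with 53.6 in replicate 1 and 36.1 in replicate 2, so it stood above the whole-list median. The 300 bases around it held 34 CpG dinucleotides and no consensus match within 2 mismatches. A further summit 652 bp away, 59228339, was only in the pooled and the conservative list, with 38.1 pooled, 21.6 in replicate 1 and 15.7 in replicate 2. Replicate 1 was higher at both. At the far end of the gene, site 3 in a noncoding exon had 19.9, with 10.7 and 6.10 in replicates 1 and 2. It was absent from the conservative list and ranked above 6.06% of the optimal list. Upstream of Ube3a, site 1 at 59080303 was one of the strongest of the domain, with 232 pooled, 121 in replicate 1 and 110 in replicate 2, and lay 148447 bp from the nearest start. It had a match with 1 mismatch on the minus strand.

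Snrpn, which encodes a spliceosomal protein and shares its start with Snurf, had no optimal-list summit within 1 kb of any annotated start but 1 on each side of the inner one. GENCODE gives it 2 starts and RefSeq promoters give 4, at 60005199, 60047978, 60140225 and 60450177, so its length upstream depends on the annotation. Site 5, summit 60007909, lay 2798 bp upstream of the inner GENCODE start and within the gene. Its signal value was 50.8, with 25.8 in replicate 1 and 24.6 in replicate 2. Site 4, summit 60000908, lay 4203 bp downstream of the start, in an intron. It had 31.2, with 13.98 in replicate 1 and 18.0 in replicate 2. Both sites were below the whole-list median of 64.3 and neither had a consensus match. Between them, a weak pooled summit at 60005194 lay 5 bp from the innermost RefSeq start, where the imprinting centre lies. Its signal value was 11.1, with 3.52 and 6.52 in replicates 1 and 2 and a q-value of 0.0344. A second weak pooled summit at 60140282, 63 bp from the outer GENCODE start of Snrpn, had 14.8, with 3.33 and 9.39. Replicate 2 was higher than replicate 1 at both weak summits.

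Between Ube3a and Snrpn lies the snoRNA array, 208 annotated snoRNA genes over 581 kb (chr7:59342226-59923122), which held no optimal-list summit and 2 pooled ones. Only 21.2% of its 31-base words occur once in the genome, and 50000 of its bases are unknown. Reads from such repeats cannot be placed at 1 position, so fewer sites and fewer countable reads cannot be told apart there. Snhg14, the transcript that carries these snoRNAs, had its nearest optimal-list summit 16846 bp downstream of 1 of its 12 GENCODE starts. That summit was site 3, in Ube3a. By its RefSeq start, 60450177, the nearest was site 8, 38086 bp upstream. A pooled summit in a Snhg14 intron, 59925290, reached 12.8, with 4.82 and 7.74 in replicates 1 and 2 and a q-value of 0.0089.

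Beyond the outer GENCODE start of Snrpn stood the 5 copies, sites 6 to 10, which made up all optimal-list sites over 650 kb. By RefSeq, whose outermost Snrpn start is 60450177, sites 6 and 7 lay downstream of that start and 3 copies upstream of it. Their signal values were 14.95 at site 6, 42.7 at site 7, 45.1 at site 8, 54.8 at site 9 and 96.2 at site 10. In replicate 1 these were 5.42, 25.5, 26.2, 36.5 and 50.7, and in replicate 2 they were 8.14, 16.7, 18.4, 18.98 and 45.1. The order was the same in both replicates. Site 10 was the copy with the C at position 1 and the single mismatch, and was 6.44-fold above site 6 and 1.76-fold above site 9. Only 43.3 to 58.3% of the 31-base words around these summits occur once in the genome, lowest at site 6. The signal at a copy may therefore include or miss reads of another copy, and the share of this in the order of the 5 values was not tested. At site 6 the 14 bases lay 166.5 bp from the summit, against 1.5 to 19.5 bp at the other copies, which is why site 6 has no match within 50 bp. A pooled summit outside the optimal list, 60238936, stood 218 bp from site 6, on the other side of these bases. It had 14.5 pooled and 9.99 in replicate 2, and its replicate 1 value, 5.42, came from the peak also used for site 6.

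**Figure D2:**
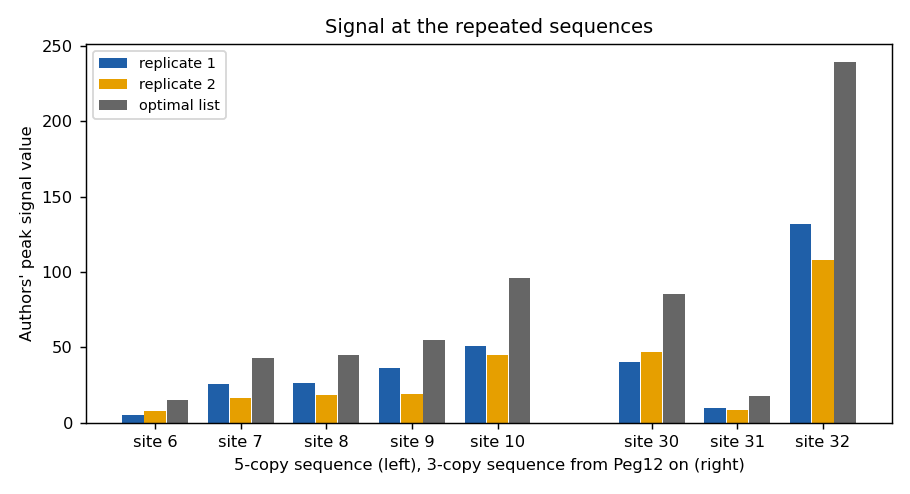
Signal value in each replicate and in the optimal list (vertical axis, bars from 0) at the 5 copies, sites 6 to 10 (left) and at the 3 copies from Peg12 on (right). Site 10 and site 32 have the tallest bars of their sets in both replicates, and sites 6 and 31 the shortest.

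The middle of the domain, between the 5 copies and the cluster, had 4 sites. Sites 13 and 14, with 122 and 57.8, lay in introns of the noncoding gene A230057D06Rik, and both matched the consensus on the minus strand. Site 12 had 44.4 and a match on the plus strand, and site 11 had 23.7 and none. The 300 bases around site 11 had 8 similar stretches elsewhere in the window and those around site 12 had 3, 69.2 to 86.0% identical, and none of these carried a summit of either list. This differed from the 5 copies, each of which carried one.

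Ndn encodes necdin, a MAGE-family protein, and its summit, site 21 at 62348170, was weak. It had 20.5, with 10.1 in replicate 1 and 12.3 in replicate 2, and no match. Its distance from the start depended on the annotation: 1601 bp by GENCODE and 107 bp by RefSeq. Upstream of Ndn stood 6 sites within 166961 bp, of which site 16 (148 pooled, 75.01 and 73.6 in the replicates) and site 17 (147 pooled, 78.6 and 68.6) were the strongest. Sites 17 to 20 were 4 neighbours in a row without a match, each with a best match of 3 mismatches, and had values of 147, 45.0, 81.0 and 32.1.

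Magel2, another MAGE-family gene, and Mkrn3, a zinc-finger ubiquitin ligase gene, lay among the strongest sites of the cluster. Site 22 stood 1135 bp upstream of the Magel2 start, with 85.9 pooled, 46.2 in replicate 1 and 38.9 in replicate 2. Site 23, at 62382604 and 5594 bp downstream of that start, had 210, with 111 and 96.0. Site 25 at 62400369 had 190, with 106 and 84.8. Both replicates placed sites 23 and 25 above every other site of the cluster. Mkrn3 had its nearest optimal-list summit 8400 bp upstream, site 26, with 127, 63.9 and 61.4. At the starts themselves only pooled summits were found: 18.9 at Magel2, 109 bp away with a q-value of 0.0001, and 8.07 at Mkrn3, 183 bp away with a q-value of 0.250.

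Peg12, a single-exon gene of the Frat family, had a summit at its promoter. Site 30, 171 bp upstream of the start, had 85.7, with 40.4 in replicate 1 and 47.1 in replicate 2. A weaker one, site 29, lay in the Peg12 exon 1682 bp downstream, with 19.4, 9.74 and 9.26, and a pooled summit between them, 62463754, had 26.7, with 16.4 and 9.87. The sequence around site 29 matched 1 place on chromosome 19 and 1 on chromosome 2, at 87.5 and 81.3% identity. The other copies of the promoter sequence, sites 31 and 32, had 17.6 (9.95 and 8.68) and 239 (132 and 108). Site 32 was thus 13.6-fold above site 31, though site 31 was only 80.2% identical to it over 258 aligned bases. The 14 bases that both share lay 10.5 bp from the summit of site 32 and 98.5 bp from that of site 31, where the nearer match had 1 mismatch. Of the words around sites 31 and 32, 98.0 and 96.7% were unique. Past site 32, sites 33 and 34 had 114 and 313, and site 34 (159 and 152) was the highest value of the domain, above 93.3% of the optimal list.

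**Figure D3:**
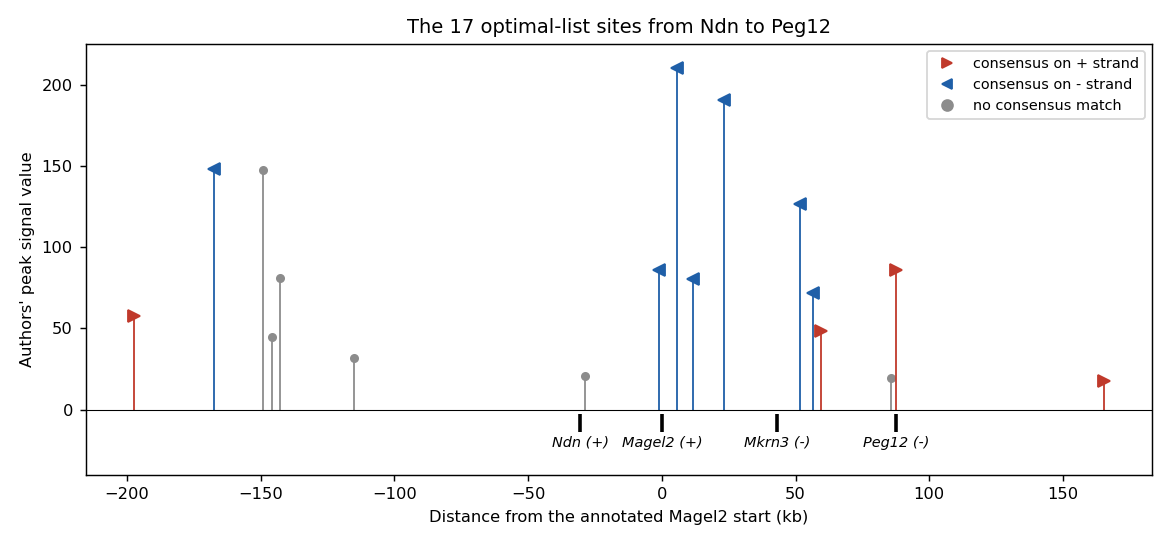
Signal value (vertical axis) of the 17 optimal-list sites around Ndn, Magel2, Mkrn3 and Peg12 against distance in kb from the Magel2 start (horizontal axis). Triangles point in the direction of the strand with the consensus match and ticks mark the 4 gene starts. The 6 triangles from Magel2 past Mkrn3 point left, and those beyond them point right.

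Counted over the 6 member genes, 2 (Ube3a and Peg12) had an optimal-list summit within 1 kb of a GENCODE start, beside 36.8% of 21938 protein-coding genes. With RefSeq starts Ndn was added, giving 3. Within 5 kb the count was 5, and within 10 kb all 6, Mkrn3 being the last. The share of all protein-coding genes was counted only within 1 kb of GENCODE starts, so the other counts have no background beside them.

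Allowing 2 mismatches and 50 bp on either side of the summit, a consensus match was found at 21 of the 34 sites (61.8%, Wilson interval 45.0 to 76.1%), beside 66.6% of all optimal-list sites. Windows 1000 bp away from all optimal-list summits held one in 2.91 and 2.97%. The Wilson interval counts the 34 sites as separate. Sites 6 to 10, however, are copies of 1 sequence, and sites 30 to 32 are copies of another. Of the 21 matches, 11 lay on the plus and 10 on the minus strand, 4 had no mismatch, 8 had 1 and 9 had 2. Matches at 6 sites held a CpG, and 4 of these were sites 7 to 10, which are copies of 1 sequence. Matches with a CpG were not counted over the whole optimal list, so no background stands beside this count. Sites with a match had a median signal value of 85.7 and the 13 without 32.1, beside 93.0 and 38.3 over the whole optimal list. The strongest site, site 34, belonged to those without. Among the 68 pooled summits outside the optimal list 8.82% had a match, beside 14.3% over the genome.

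The strands were not interspersed at the end of the cluster. The 6 sites from 22 to 27, from just upstream of Magel2 to beyond Mkrn3, all had the match on the minus strand. The 5 matched sites after them, 28 and 30 to 33, all had it on the plus strand. Sites 30 to 32 are the 3 copies of 1 sequence, and sites 26 and 27 share 35 of 40 bases. Their strands are therefore not separate observations. These runs thus point away from each other. CTCF sites at loop anchors are known to face each other more often than away, but loops were not measured here. This run of strands was noticed in the data and not tested.

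Consensus matches were sparser in the domain than on the chromosome. At most 1 mismatch was found at 68 positions of the window, or 17.2 per Mb, beside 30.9 per Mb on chromosome 7. The GC content was 38.8% against 43.1%. Within 50 bp of an optimal-list summit lay 17.6% of the 68 matches, beside 31.1% on chromosome 7. This share depended on 1 repeated match. The same 14 bases, TCACTAGAGGGCAC, made up 35 of the 68, none of them near a summit of either list, and a median of 9.67% of the words around them were unique. They made up 616 of the 4389 matches on chromosome 7, none of them near an optimal-list summit. Without them 12 of 33 matches in the domain (36.4%) lay at a summit, beside 36.2% on chromosome 7, and the domain had 8.35 matches per Mb beside 26.6. This was looked at after the data had been seen. Of the 8 positions with no mismatch, 4 lay at summits of the optimal list (sites 22, 23, 27 and 32) and 1 at a pooled summit outside the optimal list. The remaining 3 had no summit of either list within 50 bp. One of them, at 61510240, lay in sequence with 0% unique 31-base words. The others, at 62400287 and 62542449, lay within the called peaks of sites 25 and 31, but beyond 50 bp from the summits.

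Stretches without a summit filled most of the window. The longest between 2 optimal-list summits was 694 kb, from site 3 in Ube3a to site 4 in Snrpn. It held 210 snoRNA genes, 33.4% unique 31-base words and 6 pooled summits, none above 12.8, and 256 of 55138 autosomal gaps were at least as long. The next 4 were 398 kb between sites 10 and 11, 334.9 kb between sites 31 and 32, 330 kb between sites 11 and 12 and 314 kb between sites 12 and 13. In these, 74.5, 58.0, 70.9 and 80.6% of 31-base words were unique. The 334.9 kb stretch held the only annotated protein-coding start among the 5, that of A26c2. The 5 together made up 51.7% of the window. The median distance between neighbouring sites was 45.2 kb, beside 15.5 kb on the autosomes.

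In the pooled list the longest stretches were 333 kb (59320724 to 59654045) and 263 kb (59662282 to 59925290), both in the snoRNA array with 137 and 71 snoRNA genes and 27.7 and 17.5% unique words. The next were 180, 169 and 161 kb and lay elsewhere, the first around A26c2 with 52.96% unique words and the others with 62.5 and 79.7%. The median distance was 13.4 kb, beside 3.21 kb on the autosomes.

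**Figure D4:**
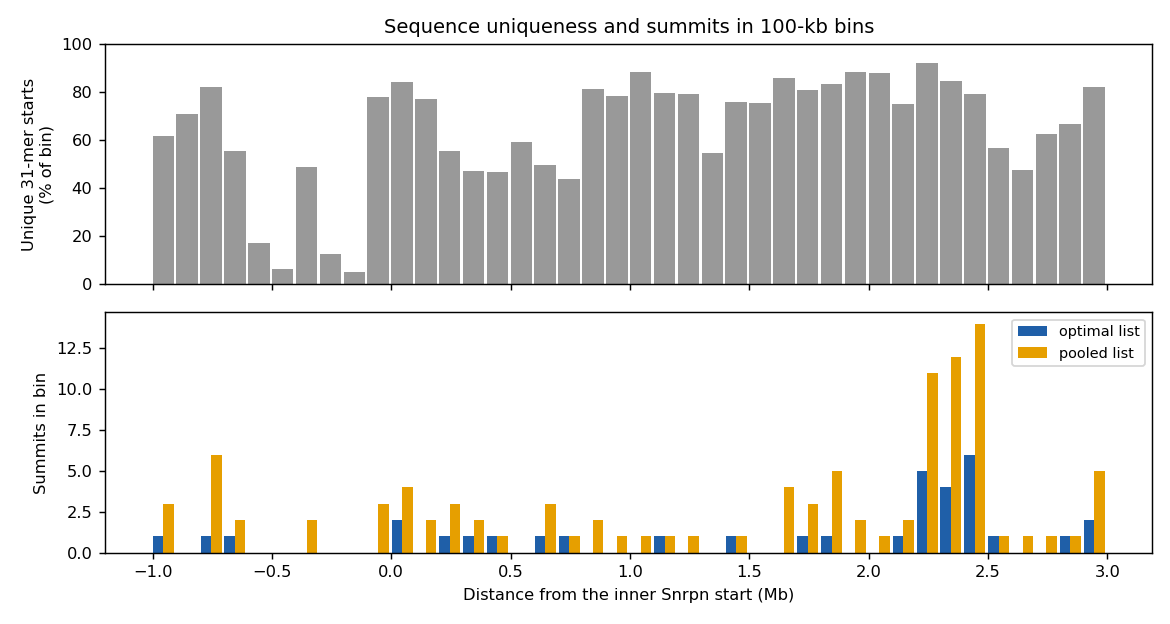
Share of 31-base words that occur once in the genome (top, percent) and number of summits of the optimal and the pooled list (bottom) in 100-kb bins, against distance in Mb from the inner Snrpn start. Bins of the snoRNA array are low in both panels, while most bins between the 5 copies and the cluster have few summits at high shares.

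Fewer summits than on the chromosome were also counted where the sequence was mostly unique. In the 4 bins of 100 kb with under 25% unique words the domain had no summit of either list, and 115 such bins on chromosome 7 averaged 0.009 optimal-list summits. In the 20 bins with 75% or more, where reads can mostly be placed, the domain averaged 1.20 optimal-list and 3.95 pooled summits, beside 3.41 and 17.2 in 1067 bins of chromosome 7. In the bins between 25 and 50% it averaged 0.667 optimal-list summits, beside 0.327. Between 50 and 75% it averaged 0.6 optimal-list and 1.3 pooled summits, beside 0.775 and 3.02. Per unique 31-base word, the domain's density of optimal-list summits was 0.384 of the chromosome's.

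The optimal list keeps peaks on which the replicates ranked alike, so likeness between replicates at its sites is partly fixed by that filter. All 34 sites had a peak in both replicates, with replicate summits at most 98 bp from the listed one. Over the whole optimal list replicate 1 was 1.15-fold higher, so ratios were centred on that median. The centred log2 ratios of replicate 1 to replicate 2 in the domain had a median of -0.00 and an SD of 0.35 across the 34 sites, beside an SD of 0.52 over the whole list. They ran from -0.79, at site 6, to 0.74, at site 9, both among the 5 copies. No site of the domain differed more than 2-fold. Over the whole list 3798 of 56461 did, which is a small share too, and the difference was not tested. With 1 library on each side there is no error for a single ratio.

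**Figure D5:**
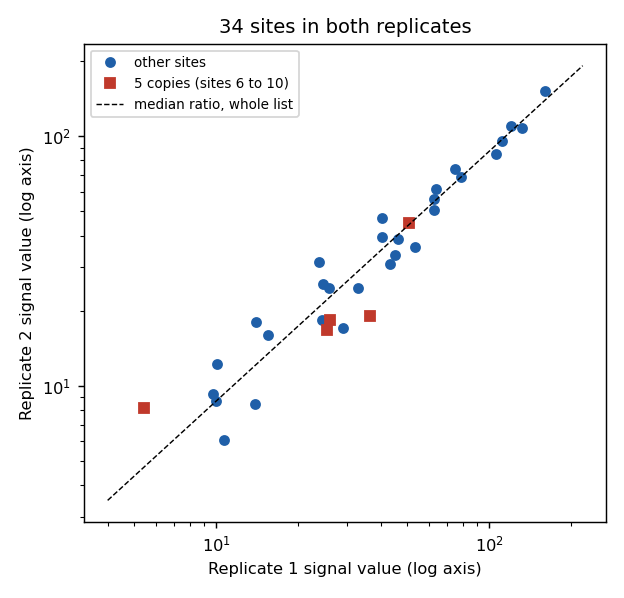
Signal value in replicate 2 against replicate 1 for the 34 sites, both axes logarithmic. Squares are the 5 copies, sites 6 to 10, and the dashed line is the median ratio of the whole optimal list, 1.15-fold. The points follow the line, and the squares for sites 6 and 9 lie farthest above and below it.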

How the data were processed

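CTCF ChIP-seq peak lists of 2 libraries of 1 group were read on mm10, per the labels. The authors deposited a list for each replicate and 1 pooled list, each of 300000 peaks, and an optimal and a conservative list kept by an irreproducible discovery rate (IDR) cutoff. Each deposited peak has a signal value whose scale is not stated (here used to describe and rank), −log10 of a q-value, and in the authors' IDR lists a score, 1000 at 28 of the 34 sites. The summit was the start plus the deposited summit offset, printed 1-based. No precision from depth can be given: the aligner, the caller and the number and length of reads were not given in the sources used here.

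The replicate value at a site was that of the replicate peak with the nearest summit. Genes were GENCODE M21 on GRCm38. A word of 31 bases was called unique if it occurred once on chromosomes 1 to 19, X and Y, on either strand. The 14-base CTCF core consensus was looked for on either strand, wholly within 50 bp of the summit, allowing 2 mismatches. Copies were found with blastn 2.17.0 (300 bases around each summit, e-value 1e-10 or less). Python 3.11.15, numpy 2.4.6, pandas 2.3.3, scipy 1.17.1, biopython 1.88 and matplotlib 3.10.9 were used. The motif scan and the word count were tested on simulated data. Poisson and Wilson intervals are 95% and cover counting error only.

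The members, gene lists and rules were chosen with earlier results of these data known. Named were the 6 member genes, the other coding and named long noncoding genes of the window, the 15 sites with the highest signal value, the site nearest each member's start, the 11 pooled-list sites outside the optimal list with q of 0.05 or less and both replicates within 100 bp, and the 5 longest gaps of each list. Other sites, the stretches, the copies and the RefSeq starts were chosen after their values were seen. The result for the full list of neighbouring genes is not reported here.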

Additional observations from a re-analysis of the deposited data

How the results depend on the processing

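Sites at or above the median signal value of the optimal list numbered 17. Of the pooled summits, 50 had a q-value of 0.05 or less and 54 had both replicates within 100 bp. The median signal value was 31.02 to 38.4 with 1 replicate alone, whose values are on a lower scale. The longest stretch with no optimal-list summit was 772 kb in the conservative list, which lacks site 3, and 618 kb in the pooled list at a q-value of 0.05 or less. With 1 replicate alone it was 755 to 772 kb. The longest stretch with no pooled summit was 618 kb at that q-value and 309 to 313 kb with 1 replicate alone. The share of sites with the consensus was 35.3% at 1 mismatch and 85.3% at 3. At these limits neither the whole optimal list nor windows away from summits were counted, so no background stands beside these shares. Member genes with a summit numbered 5 within 5 kb, 6 within 10 kb and 4 in the pooled list at a q-value of 0.05 or less. No share over all protein-coding genes stands beside these counts. The density ratio to chromosome 7 stayed between 0.269 and 0.384 under the alternatives run for it, and was 0.193 for the whole pooled list. No paired analysis was possible because there is 1 group. The conservative list also held 34 sites, 32 of them shared with the optimal list; it lacked sites 3 and 6 and added 59228339 and 62463754. Depth and allele are unknown, the signal scale is not stated, and repeats limit what could be placed.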

Other observations

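Of the 11 pooled summits outside the optimal list with a q-value of 0.05 or less and both replicates nearby, those not yet described were weak. The strongest was 59245734, in an exon of the noncoding gene 9330162G02Rik, with a signal value of 25.7, 7.43 in replicate 1 and 16.8 in replicate 2. It was the only one of the 11 with a consensus match within 2 mismatches. The others were 62302612 with 16.6, 62250291 with 16.3, 61687494 with 13.8, 60374202 with 13.5 and 60224594 with 12.5. Site 15 at 62179608, with 57.6 and a match on the plus strand, lay in a repeated sequence with 874 other hits in the genome, and 76.7% of the 31-base words around it were unique. The nearest optimal-list summits outside the window were 58870873 with 38.5, 129 kb before its start, and 63207346 with 138, 207 kb past its end.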
